A study of Mus musculus with 38 samples.

Results

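The genes described here are 10 members of the Bcl2 family, which set whether a cell survives or enters apoptosis: the survival genes Bcl2, Bcl2l1, Bcl2l2 and Mcl1, the effector gene Bak1, and the death-promoting genes Bcl2l11, Bid, Bad, Bik and Bmf. They were found by name among the spots of the array, without any measured value: 22 of the 41174 probes that are not controls carried one of the 10 names, out of 27962 names on the array. Their mRNA was measured on 38 two-colour arrays of GFP-positive tumor cells from the MMTV-PyMT mouse model of breast cancer. The first experiment, with 16 arrays, compared untreated tumors with residual tumors and relapsed tumors after chemotherapy. The second, with 22 arrays, compared adenomas, carcinomas, tumor cells found disseminated in the lung, and metastases of the lung.

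All tumors came from the same kind of donor. In MMTV-PyMT;actin-GFP mice the mouse mammary tumor virus promoter drives the polyoma middle T oncogene, in mammary epithelium and in some other organs, and the actin promoter drives GFP in all cells of the donor. Hyperplastic lesions of these mice were transplanted into FVB/n hosts, in mammary fat pads cleared of their own epithelium, so GFP marked cells that came from the transplant. The untreated group (6 samples, labelled Control) received no drug. The residual group (6 samples, labelled Regressed tumor) and the relapsed group (4 samples, labelled Resistant tumor) received TAC, a combination of docetaxel, doxorubicin and cyclophosphamide that began 2 months after transplantation, and were taken after the first dose and after repeated doses, respectively. The adenoma (5 samples), carcinoma (6), disseminated (6) and metastasis (5) groups received no drug. Lungs of several mice were pooled for each disseminated sample, and metastases were collected from lungs after the primary tumor had been removed. Each sample was sorted for GFP, labelled with Cy5 and hybridized against Cy3-labelled universal mouse reference RNA, with no dye swap, so that every value below is a log2 ratio of sample to reference. The labels do not tie the samples of a group to separate mice, and p-values therefore measure only the spread between these samples. RNA of the progression samples went through an additional round of amplification, and the experiments were not compared with each other.

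Bcl2 family proteins meet at the outer membrane of the mitochondrion. Bcl2, Bcl2l1 (Bcl-xL), Bcl2l2 (Bcl-w) and Mcl1 hold the effectors Bax and Bak1 in check, while the BH3-only proteins Bcl2l11 (Bim), Bid, Bad, Bik and Bmf bind the survival proteins or activate the effectors, after which the membrane is opened, cytochrome c escapes and caspases are switched on. In the mammary gland Bim and Bmf are known for removing cells that have lost contact with the matrix. Much of the family's regulation acts on the proteins, through phosphorylation, cleavage or degradation, which mRNA levels do not show.

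On the brightest probe of each gene, but not on its other probes, Bcl2 was higher in carcinomas than in adenomas. In the same way Bcl2l11 was higher and Bad lower in both kinds of lung sample than in adenomas. Promoter sequences of Bcl2, Bcl2l11 and Bad are shown. They are the 250 bases before a RefSeq transcript start in build GRCm38.p6, written 5′ to 3′ on the strand of the gene, with capitals marking every GGGCGG (the GC box of Sp1-type factors, on either strand, as GGGCGG or CCGCCC) and every GTAAACA (a motif of Foxo and other forkhead factors, on either strand). The motifs did not overlap each other in these windows. The Bcl2 window (chr1:106714291-106714540, minus strand) held 7 GC boxes and no forkhead motif. Bcl2l11 and Bad each had another window, not shown. The Bcl2l11 window shown (chr2:128125788-128126037, plus strand) held 3 GC boxes and 1 forkhead motif, and its other window (chr2:128127325-128127574) 2 GC boxes and 0 forkhead motifs. The Bad window shown (chr19:6941611-6941860, plus strand) held 3 GC boxes, and its other window (chr19:6942312-6942561) held 0.
Bcl2: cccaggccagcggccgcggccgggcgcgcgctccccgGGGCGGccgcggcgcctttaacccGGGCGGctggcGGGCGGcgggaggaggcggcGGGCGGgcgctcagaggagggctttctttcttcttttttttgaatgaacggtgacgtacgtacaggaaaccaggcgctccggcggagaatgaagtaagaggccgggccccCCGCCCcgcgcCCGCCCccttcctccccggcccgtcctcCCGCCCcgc
Bcl2l11: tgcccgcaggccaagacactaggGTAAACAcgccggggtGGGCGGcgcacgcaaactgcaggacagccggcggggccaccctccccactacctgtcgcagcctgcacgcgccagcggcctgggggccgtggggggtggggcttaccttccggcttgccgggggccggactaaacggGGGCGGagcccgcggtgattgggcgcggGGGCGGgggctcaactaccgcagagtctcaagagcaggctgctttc
Bad: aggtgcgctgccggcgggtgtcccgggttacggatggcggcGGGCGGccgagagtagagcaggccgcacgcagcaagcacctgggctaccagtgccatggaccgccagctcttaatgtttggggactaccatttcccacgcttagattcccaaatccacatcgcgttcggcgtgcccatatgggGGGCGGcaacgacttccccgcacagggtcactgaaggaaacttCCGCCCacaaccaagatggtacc

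RefSeq windows were at hand for 9 of the 10 genes, 15 windows in all, since some genes have more than 1 start. A GC box was present in 7 of the 15 windows, from 6 of the 9 genes, and in 32.7% of 32851 mouse promoters of the same length. GTAAACA was present in 1 of the 15, that of Bcl2l11 shown above, and in 3.17% of all promoters. The E-box CACGTG (6.02% of all promoters), the Stat-type motif TTCNNNGAA (7.02%) and the cyclic AMP response element TGACGTCA (1.55%) were present in 0 of the 15, also counting both strands. A match is a stretch of letters and not a measured binding site.

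Between 49.9% and 63.7% of probes were well above background in the sample channel of the chemotherapy arrays, and between 47.6% and 78.3% in the progression arrays. The median correlation of an array with the others of its group was 0.887 to 0.937 in the chemotherapy experiment. In the progression experiment it fell to 0.685 for disseminated replicate 6, 0.768 for carcinoma replicate 6, 0.773 for disseminated replicate 4 and 0.782 for metastasis replicate 4, with all other arrays at 0.825 or above. A list of 11 mammary epithelium genes (keratins, Epcam, Cdh1 and others) had a mean log2 ratio of 3.88 to 4.35 in every chemotherapy sample, 2.81 to 3.44 in adenomas and 2.40 to 3.85 in carcinomas, but 0.33 to 3.38 in disseminated samples and 0.57 to 4.25 in metastases. Ptprc, the pan-leukocyte gene that encodes CD45, lay between -3.30 and -2.04 in adenomas and between 0.75 and 4.08 in disseminated samples. The sorted disseminated samples thus carried leukocyte RNA. In metastases Ptprc lay between -2.74 and 2.40 with a median of 1.17, and in carcinomas between -5.10 and 1.27 with a median of -4.47. The mean of 12 macrophage genes was 0.01 to 0.64 in adenomas, -0.33 to 0.83 in carcinoma replicates 1 to 5 and 4.95 in carcinoma replicate 6. It was 3.37 to 5.23 in disseminated samples, and 3.89, 1.17, 4.73, 5.51 and 1.33 in metastasis replicates 1 to 5. Adenomas and carcinoma replicates 1 to 5 thus lay below every lung sample. Of the primary tumors only carcinoma replicate 6 reached the range of the lung samples. As a covariate in the fits below, the macrophage mean is only partly separable from the group in comparisons of lung samples with primary tumors. A call lost under it therefore does not tell what part macrophages had. All 12 macrophage genes were above background in at least 1 adenoma. In such bulk samples fewer cells of a type and less RNA per cell cannot be told apart.

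Each gene was followed through its brightest probe, values of different probes were not set against each other as levels, and a gene passed when limma's adjusted p (Benjamini-Hochberg over all 41174 probes) was below 0.05. Along progression, 1 of the 10 genes passed between carcinoma and adenoma, 3 between disseminated cells and adenoma, and 5 between metastases and adenoma. By the same rule 11.7%, 19.9% and 28.6% of all named genes passed. With only 10 genes, such counts say little about the family as a whole. Between disseminated cells and carcinoma 2 of the 10 passed (26.4% of all names), between metastases and carcinoma 2 (21.9%), and between metastases and disseminated cells 2 (13.1%). Among all 22 probes 3, 4, 8, 6, 5 and 2 passed in the same order of comparisons, against 11.5%, 18.2%, 27.5%, 24.7%, 21.1% and 12.9% of all probes. The median change of the 10 genes was -0.17, -0.16, -0.18, -0.26, -0.25 and 0.04 on the log2 scale, and that of all probes lay between -0.05 and 0.05. The members did not move as a block. On the brightest probes Bcl2l11 was higher and Bad and Bik lower in lung samples than in adenomas, and Bcl2 was higher in carcinomas. Other probes of Bcl2l11, Bad and Bcl2 did not pass in these comparisons. On the brightest probes Bcl2l2 was higher in metastases than in each other group, which its second probe did not show, and Bak1 was lower in metastases than in adenomas and disseminated cells. Groups did not overlap at all for 1, 3, 6, 1, 2 and 0 of the 10 genes in the same order, and for 10.2%, 8.29%, 20.6%, 7.11%, 13.5% and 4.34% of all probes.

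**Figure D1:**
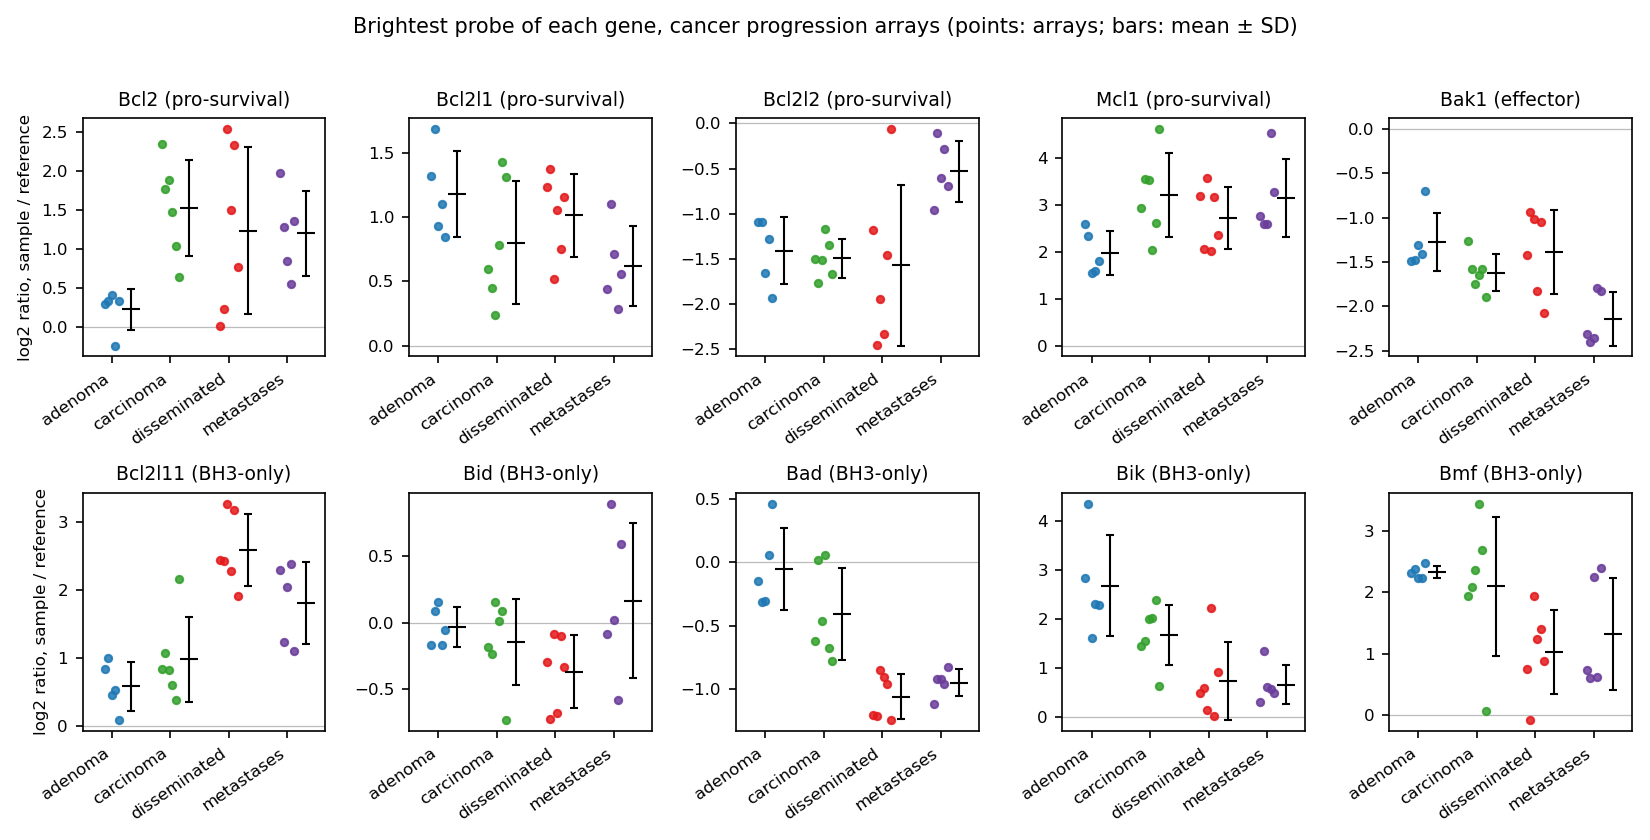
The log2 ratio of sample to reference for the brightest probe of each of the 10 genes in the 4 progression groups, 1 point per sample, with the group mean and SD. The 6 disseminated samples lie between 1.92 and 3.27 for Bcl2l11 and the 5 adenomas between 0.09 and 1.0, while for Bad the disseminated samples and metastases lie at -0.82 or below and the adenomas at -0.31 or above.

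Carcinoma and metastasis arrays shared 3 slides and were scanned on 1 day, and adenoma and disseminated arrays shared the other 3 slides, scanned on another day. A difference between a group of the first set and a group of the second therefore cannot be told apart from scan day. Only disseminated cells against adenoma and metastases against carcinoma could be compared within slides, and those values stand beside the results below.

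Bcl2, the founding survival gene, was higher in carcinomas than in adenomas. Its log2 ratio was 0.30, 0.33, 0.40, -0.24 and 0.33 in adenoma replicates 1 to 5, and in carcinomas the lowest was 0.63, the median 1.62 and the highest 2.35. All 6 carcinomas lay above all 5 adenomas. The mean was 1.30 higher (SE 0.41, 95% CI 0.44 to 2.16), which is 2.46-fold, with an adjusted p of 0.0457 by limma. Among the 11 fits that left out 1 array, the difference passed only without carcinoma replicate 6, at 1.48 (adjusted p = 0.0283 by limma). Without any other single array of the groups it ranged from 1.14 (without carcinoma replicate 1, adjusted p = 0.102) to 1.40 (without carcinoma replicate 5, adjusted p = 0.0502). The other probes of Bcl2 gave 0.57 (adjusted p = 0.272) and 0.41 (adjusted p = 0.444 by limma).

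Bcl2 was most variable in disseminated cells, from 0.00 to 2.54 with a median of 1.14, and the samples overlapped both adenomas and carcinomas. Metastases had 1.97, 1.28, 0.84, 0.55 and 1.35, all above the adenomas. Neither group passed against adenoma, with a mean difference of 1.01 (adjusted p = 0.0948) for disseminated cells and 0.97 (adjusted p = 0.0991 by limma) for metastases. Without disseminated replicate 1 the former was 1.25 (adjusted p = 0.0395), without disseminated replicate 2 it was 1.21 (adjusted p = 0.0471), and with slide as a fixed block it was 1.04 (adjusted p = 0.0438 by limma). This probe was printed 10 times on each array, and the median SD among its spots within a progression array was 0.0291, against 0.263 to 1.07 between the samples of a group. The SD among spots leaves out the noise of amplification, labelling and hybridization.

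Bcl2l1, which encodes the survival protein Bcl-xL, was 1.33, 1.69, 0.94, 1.11 and 0.85 in adenomas and 0.44, 1.10, 0.71, 0.28 and 0.56 in metastases, with carcinomas from 0.24 to 1.43 and disseminated cells from 0.52 to 1.38. All 4 groups overlapped, and no comparison passed. The widest difference, metastases minus adenoma, was -0.56 (95% CI -1.04 to -0.08, adjusted p = 0.0741 by limma), and it passed at -0.68 (adjusted p = 0.0400) without metastasis replicate 2. A dimmer probe of the same gene, not well above background in 2 of the 6 disseminated samples and 1 adenoma, was 1.45 lower in disseminated cells than in carcinomas (adjusted p = 0.00539 by limma), where the brightest probe gave 0.22 in the other direction.

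Bcl2l2, which encodes the survival protein Bcl-w, was measured by a pair of probes that gave different accounts, and they lie apart on chromosome 14 in the coordinates of the array annotation (build mm7). On the brighter probe (chr14:49754681-49754740) the metastases had -0.96, -0.11, -0.60, -0.28 and -0.69, and the adenomas -1.09, -1.09, -1.65, -1.28 and -1.94, of which the third was not well above background. Carcinomas ran from -1.77 through a median of -1.51 to -1.17, and disseminated cells from -2.45 through -1.70 to -0.06. The metastases were thus above every adenoma and carcinoma and above 5 of the 6 disseminated samples.

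The mean of the metastases was higher by 0.88 than that of adenomas (SE 0.33, 1.84-fold, adjusted p = 0.0497), by 0.97 than that of carcinomas (SE 0.31, 1.95-fold, adjusted p = 0.0328) and by 1.04 than that of disseminated cells (SE 0.31, 2.06-fold, adjusted p = 0.0322 by limma). Within the 3 slides that held both groups, metastases exceeded carcinomas by 0.82, 0.88 and 1.40. All 3 calls were close to the threshold. Against adenoma the call was lost in 8 of 10 fits without 1 array, all but those without metastasis replicate 1 or adenoma replicate 1, at 0.75 to 0.96 (adjusted p from 0.0513 to 0.116). Against carcinoma it was lost without carcinoma replicates 1, 2 or 3 or metastasis replicates 2, 3 or 4 (0.86 to 0.98, adjusted p from 0.0549 to 0.0826), and against disseminated cells without replicates 2, 3 or 4 of either group (0.87 to 1.06, adjusted p from 0.0574 to 0.0881 by limma). Macrophage genes passed higher in metastases than in adenomas (9 of 12) and carcinomas (4 of 12). In either direction 28.6% and 21.9% of all names passed in these comparisons. With the macrophage mean as a covariate Bcl2l2 gave 0.84 (adjusted p = 0.222) and 0.93 (adjusted p = 0.144 by limma), respectively. With the mammary epithelium mean as a covariate the difference from disseminated cells was 0.85 (adjusted p = 0.153 by limma).

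On the other probe of Bcl2l2 (chr14:49751852-49751911) the carcinomas stood apart. They had a lowest value of 1.68, a median of 2.07 and a highest of 2.63, whereas adenomas had 0.55, 0.37, -0.08, 0.44 and 0.06, metastases 0.42, 0.40, 0.52, 0.24 and 1.56, and disseminated cells -0.08 to 0.79. No other group overlapped the carcinomas. The carcinoma mean exceeded that of adenomas by 1.84 (SE 0.22, 3.57-fold, adjusted p = 9.29e-05), and disseminated cells were 1.79 lower than carcinomas (adjusted p = 2.57e-05 by limma). Metastases were 1.47 lower than carcinomas (adjusted p = 0.000314 by limma), the opposite sign to the brighter probe. The direction for Bcl2l2 between metastases and carcinomas is therefore not settled by this array.

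**Figure D2:**
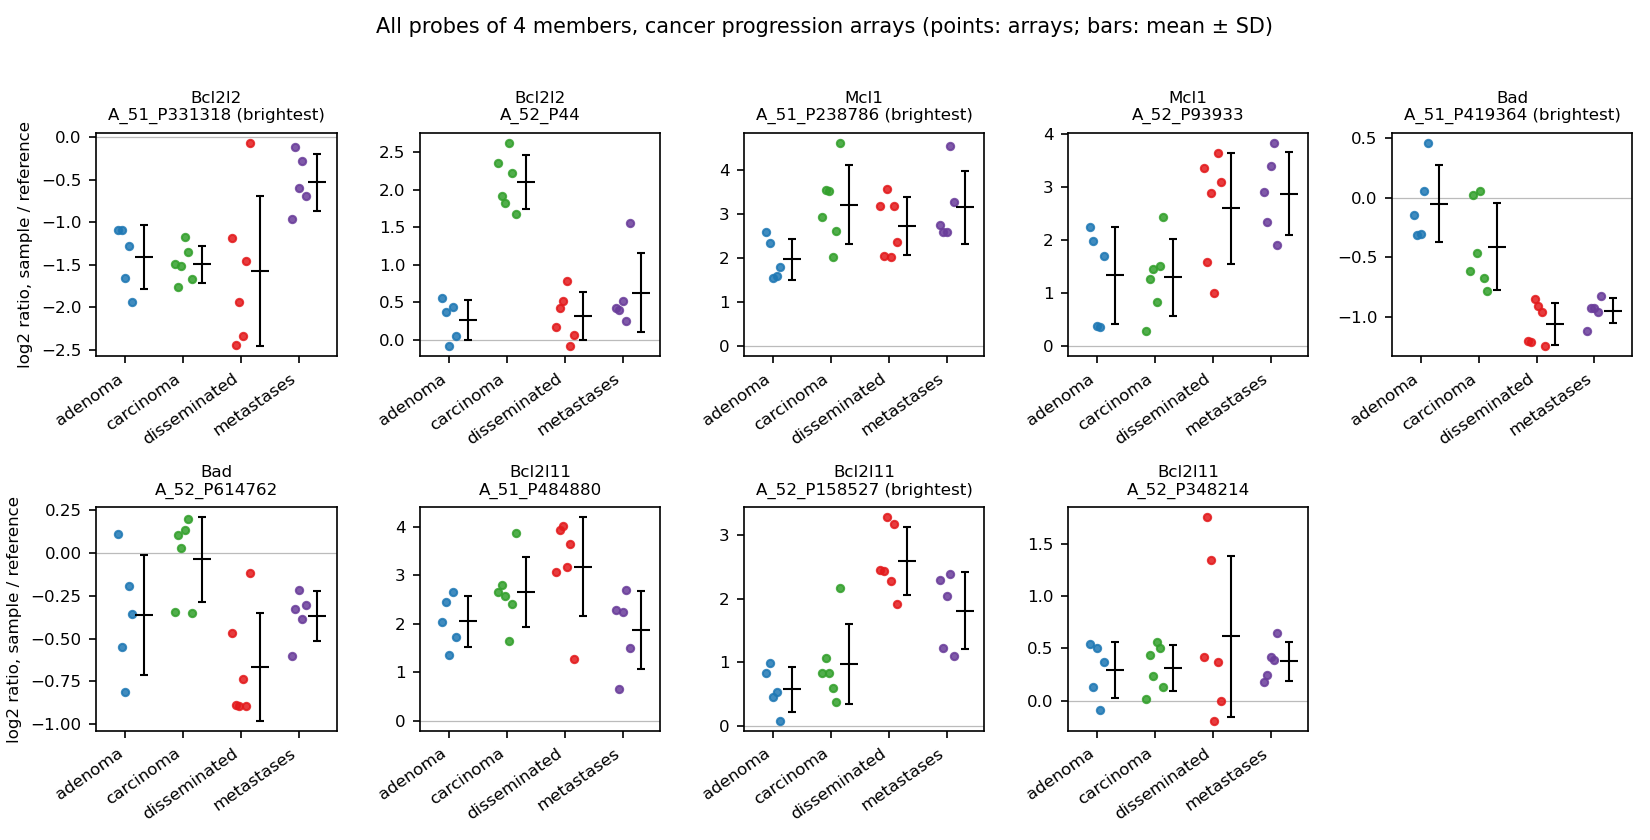
The log2 ratio of sample to reference for each probe of Bcl2l2, Mcl1, Bad and Bcl2l11 in the 4 progression groups, 1 panel per probe and 1 point per sample, with the group mean and SD beside the points and the brightest probe of each gene named in its panel title. On the brightest Bcl2l2 probe the metastases, from -0.96 to -0.11, lie above every adenoma and carcinoma and all but 1 disseminated sample, whereas on the other probe the carcinomas, from 1.68 to 2.63, lie above all other samples.

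Mcl1, a survival gene whose protein is short-lived, varied widely among the later samples. Adenomas had 2.60, 2.33, 1.55, 1.60 and 1.80 and metastases 2.75, 2.59, 2.59, 4.54 and 3.28. Carcinomas ran from 2.03 through 3.23 to 4.62, and disseminated cells from 2.02 through 2.77 to 3.56. The highest values, 4.62 and 4.54, came from carcinoma replicate 6 and metastasis replicate 4, which are among the arrays least like their groups and had the highest macrophage means of theirs (4.95 and 5.51). The carcinoma mean was 1.24 above the adenoma mean (adjusted p = 0.0656), and that of metastases 1.18 above it (adjusted p = 0.0562 by limma), and neither passed. Without carcinoma replicate 4 the former was 1.48 (adjusted p = 0.0346), and without adenoma replicate 1 the latter was 1.33 (adjusted p = 0.0441 by limma).

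The second Mcl1 probe differed from the first in carcinomas, with a difference from adenoma of -0.04 (adjusted p = 0.973). On that probe metastases had 2.90, 2.34, 3.40, 3.84 and 1.92 and adenomas 2.26, 1.98, 0.37, 0.35 and 1.71. The metastasis mean was higher by 1.55 than that of adenomas (SE 0.53, 2.92-fold, adjusted p = 0.0354) and by 1.58 than that of carcinomas (adjusted p = 0.0316 by limma), with overlap in both.

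Bak1, an effector that forms the pore in the mitochondrial membrane, was lowest in metastases. Its log2 ratio was -1.49, -1.48, -1.31, -1.41 and -0.71 in adenomas and -2.32, -2.40, -2.36, -1.80 and -1.82 in metastases, and carcinomas lay from -1.90 to -1.27 and disseminated cells from -2.08 to -0.93. Every metastasis was below every adenoma, and 3 of them were below all carcinomas and all disseminated samples. Metastases were 0.86 lower than adenomas (SE 0.21, 1.82-fold, adjusted p = 0.00523) and 0.75 lower than disseminated cells (SE 0.20, 1.68-fold, adjusted p = 0.0195 by limma). The second difference did not pass without disseminated replicates 2 or 3 or metastasis replicates 1, 2 or 3 (-0.66 to -0.71, adjusted p from 0.0503 to 0.0561). The second probe gave -0.43 against adenoma (adjusted p = 0.0442) and -0.11 against disseminated cells (adjusted p = 0.712 by limma). Against carcinoma the probes gave -0.52 (adjusted p = 0.0774) and -0.59 (adjusted p = 0.00892 by limma), and within slides the brighter probe gave -0.47, -0.55 and -0.66 and, with slide as a fixed block, passed at -0.55 (adjusted p = 0.0463 by limma). Of the 12 macrophage genes 9 passed higher in metastases than in adenomas, beside 28.6% of all names in either direction. With the macrophage mean as a covariate the Bak1 difference between metastases and adenomas was -0.80 (adjusted p = 0.0651 by limma). With the mammary epithelium mean as a covariate the difference from disseminated cells was -0.49 (adjusted p = 0.143 by limma).

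Bcl2l11, which encodes the BH3-only protein Bim, showed the widest rise of the 10 genes from adenomas to disseminated cells. Its brightest probe lies at chr2:127903168-127903227 (mm7). Adenomas had 0.84, 1.0, 0.46, 0.54 and 0.09, carcinomas a lowest of 0.39, a median of 0.83 and a highest of 2.17, and disseminated cells a lowest of 1.92, a median of 2.44 and a highest of 3.27. Every disseminated sample was above every adenoma and above 5 of the 6 carcinomas, the exception being carcinoma replicate 6. The mean of disseminated cells was higher by 2.00 than that of adenomas (SE 0.32, 95% CI 1.34 to 2.66, 4.01-fold, adjusted p = 0.000617) and by 1.60 than that of carcinomas (SE 0.30, 95% CI 0.97 to 2.23, 3.04-fold, adjusted p = 0.00101 by limma). Both calls held in each fit that left out 1 array. Within the 3 slides, disseminated cells exceeded adenomas by 1.50, 2.68 and 1.89.

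Metastases had Bcl2l11 values of 2.30, 1.23, 2.04, 2.39 and 1.11, all above the adenomas. Their mean was higher than that of adenomas by 1.23 (SE 0.33, 2.35-fold, adjusted p = 0.0091 by limma). Against carcinomas the difference was 0.83 (adjusted p = 0.0684), and it passed without carcinoma replicate 6 (1.07, adjusted p = 0.0089), without metastasis replicate 2 (0.98, adjusted p = 0.0496) and without metastasis replicate 5 (1.01, adjusted p = 0.0317 by limma). Within slides it was 0.74, 1.51 and -0.05, the last on the slide that held carcinoma replicate 6. Against disseminated cells metastases gave -0.77 (adjusted p = 0.118). The dimmer probes of Bcl2l11 gave no call: from disseminated cells to adenoma they differed by 1.13 (adjusted p = 0.0924) and 0.32 (adjusted p = 0.424), and from metastases to adenoma by -0.17 (adjusted p = 0.83) and 0.08 (adjusted p = 0.857 by limma).

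Macrophage genes moved with Bcl2l11. Of the 12 macrophage genes 10 passed higher in disseminated cells than in adenomas and 9 in metastases than in adenomas. Against carcinomas 8 passed higher in disseminated cells and 4 in metastases, and 0 passed lower in any of these comparisons. In either direction 19.9%, 28.6%, 26.4% and 21.9% of all names passed in the same order. The array with the highest Bcl2l11 among carcinomas, replicate 6 at 2.17, had a macrophage mean of 4.95, and the metastases with the lowest Bcl2l11, replicates 2 and 5, had macrophage means of 1.17 and 1.33 against 3.89 to 5.51 in the others. With the macrophage mean as a covariate the Bcl2l11 difference was 0.94 for disseminated cells against adenoma (adjusted p = 0.261), 0.71 against carcinoma (adjusted p = 0.168) and 0.43 for metastases against adenoma (adjusted p = 0.392 by limma), and none passed. The macrophage mean did not overlap between adenomas and either lung group, and only replicate 6 of the carcinomas reached the lung samples. These fits therefore separate it from the group only in part. In disseminated cells against adenomas, 8 of 10 neutrophil genes, 7 of 7 alveolar macrophage genes and 5 of 7 lung epithelium genes passed higher. So did 4 of 7 endothelium, 2 of 3 erythroid, 2 of 6 B cell and 4 of 12 T and NK cell genes, with 1 of the last lower. Of all names 19.9% passed there in either direction. Mmp8, Ngp, Cxcr2 and Retnlg among the neutrophil genes were never well above background in adenomas, nor were Siglecf (alveolar macrophage) and Sftpa1 (lung epithelium). The part of these cells in the Bcl2l11 values was not tested.

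**Figure D3:**
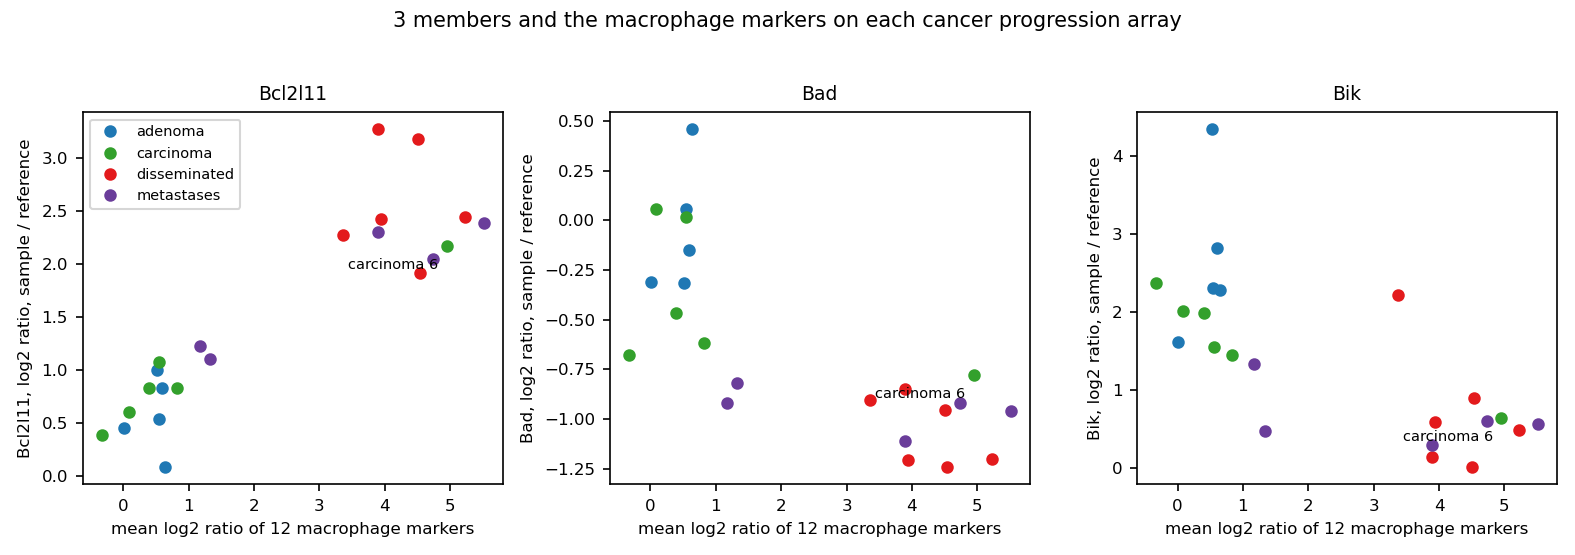
The log2 ratio of Bcl2l11, Bad and Bik against the mean log2 ratio of the 12 macrophage genes in the 22 progression samples, 1 panel per gene and 1 point per sample, coloured by group. Carcinoma replicate 6 is the green point at a macrophage mean of 4.95, to the upper right of its label, and metastasis replicates 2 and 5, at 1.17 and 1.33, lie nearer to the adenomas and the other carcinomas on that axis than to the other metastases.

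Bad, a BH3-only gene whose protein is inactivated by phosphorylation downstream of growth factors, was lower in both kinds of lung sample than in adenomas and carcinomas. Adenomas had -0.15, -0.31, -0.31, 0.06 and 0.46, and metastases -1.11, -0.92, -0.92, -0.96 and -0.82. Carcinomas ran from -0.78 through -0.54 to 0.06, and disseminated cells from -1.24 through -1.08 to -0.85. The primary tumors and the lung samples did not overlap. Of the 22 values, 1 adenoma and 1 disseminated sample were not well above background.

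Disseminated cells were 1.01 lower in Bad than adenomas (SE 0.16, 95% CI of the difference -1.34 to -0.68, 2.01-fold, adjusted p = 0.000607), and metastases 0.89 lower (SE 0.17, 1.86-fold, adjusted p = 0.000607 by limma). Against carcinomas the differences were -0.65 for disseminated cells (SE 0.15, 1.57-fold, adjusted p = 0.0043) and -0.54 for metastases (SE 0.16, 1.45-fold, adjusted p = 0.021 by limma). Within slides disseminated cells differed from adenomas by -1.18, -0.97 and -0.75, and metastases from carcinomas by -0.91, -0.49 and -0.19. The last comparison did not pass without carcinoma replicate 2 (-0.45, adjusted p = 0.0554), carcinoma replicate 4 (-0.44, adjusted p = 0.0537) or metastasis replicate 1 (-0.49, adjusted p = 0.0563 by limma).

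The second Bad probe, which is annotated to another transcript and was not well above background in 3 disseminated samples and 2 adenomas, passed between disseminated cells and carcinomas at -0.63 (adjusted p = 0.00655), but gave -0.31 against adenoma (adjusted p = 0.207) and -0.01 between metastases and adenomas (adjusted p = 0.98 by limma). With the macrophage mean as a covariate, Bad was 0.72 lower in metastases than in adenomas (adjusted p = 0.0269), while the other differences did not pass. They were -0.40 for metastases against carcinoma (adjusted p = 0.197), and -0.78 for disseminated cells against adenoma (adjusted p = 0.158) and -0.46 against carcinoma (adjusted p = 0.206 by limma). Between metastases and disseminated cells the brighter probe differed by 0.11 (95% CI -0.22 to 0.44).

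Bik, a BH3-only gene whose protein acts at the endoplasmic reticulum, had the widest span of group means of all 10 genes, 2.02 on the log2 scale. Adenomas had 2.83, 4.35, 1.62, 2.31 and 2.28, carcinomas a lowest of 0.64, a median of 1.78 and a highest of 2.37, disseminated cells a lowest of 0.02, a median of 0.55 and a highest of 2.22, and metastases 0.30, 1.34, 0.61, 0.56 and 0.48. The metastases lay below all adenomas, and 5 of the 6 disseminated samples did, the exception being replicate 4. In disseminated cells the mean was 1.95 lower than in adenomas (SE 0.43, 95% CI of the difference -2.84 to -1.05, 3.86-fold, adjusted p = 0.00493), and in metastases 2.02 lower (SE 0.45, 4.06-fold, adjusted p = 0.00245 by limma). Both calls held in each fit without 1 array. Without normalization between arrays, or with Aquantile, neither passed, at -1.10 for disseminated cells (adjusted p = 0.105) and -1.22 for metastases (adjusted p = 0.0691 by limma). The call for disseminated cells was also lost in the equal-variance test without limma's moderation (adjusted p = 0.0631) and with the mammary epithelium mean as a covariate (-1.47, adjusted p = 0.0578). Within slides disseminated cells differed from adenomas by -1.86, -3.24 and -0.21, the last on the slide with disseminated replicate 4 and the lowest adenoma.

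Carcinomas lay between the groups for Bik, 1.0 below adenomas (adjusted p = 0.135). Disseminated cells were at -0.94 from carcinomas (adjusted p = 0.0992) and metastases at -1.02 (adjusted p = 0.101 by limma). Without carcinoma replicate 6, whose value of 0.64 was the lowest of its group, these were -1.15 (adjusted p = 0.0424) and -1.22 (adjusted p = 0.0424), and without disseminated replicate 4 the former was -1.24 (adjusted p = 0.0194 by limma). With the macrophage mean as a covariate the differences from adenoma were -1.13 for disseminated cells (adjusted p = 0.507) and -1.40 for metastases (adjusted p = 0.0942 by limma).

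Among 17587 probes well above background that were compared with Bik across the 22 progression samples, the most alike were Jmy (Pearson's r 0.916), Sh3bp4 (0.872), C530043A13Rik (0.871), Vps53 (0.871) and Prpf40b (0.869). These are descriptions over samples that share their groups and slides. Jmy had group means of 1.76 in adenomas, 1.17 in carcinomas, 0.68 in disseminated cells and 0.28 in metastases, beside 2.68, 1.67, 0.73 and 0.66 for Bik.

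Bmf, a BH3-only gene whose protein is held by the cytoskeleton, was close to constant in adenomas, at 2.32, 2.38, 2.23, 2.24 and 2.47. Carcinomas had 1.94, 2.09, 2.37, 3.44 and 2.69 in replicates 1 to 5 and 0.07 in replicate 6. Disseminated cells ran from -0.08 through 1.06 to 1.94, and metastases had 0.74, 0.60, 2.26, 0.63 and 2.39. Every disseminated sample lay below every adenoma, with a difference of -1.30 (SE 0.47, adjusted p = 0.0614 by limma) that did not pass. It passed at -1.49 (adjusted p = 0.0476) without disseminated replicate 3, at -1.24 (adjusted p = 0.0322) with slide as a fixed block and at -1.29 (adjusted p = 0.0495 by limma) with slide as a random block. The differences from carcinoma changed with carcinoma replicate 6: with it disseminated cells differed by -1.08 (adjusted p = 0.0889) and metastases by -0.78 (adjusted p = 0.278), and without it by -1.48 (adjusted p = 0.00594) and -1.18 (adjusted p = 0.0319 by limma). A dim probe of Bmf passed against adenoma in the other 3 groups at -0.42 to -0.47, but rose well above background on a single array, that of 1 adenoma.

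Bid, which is cleaved by caspase-8 and links death receptors to the mitochondrion, had the narrowest span of group means along progression. Adenomas had -0.17, 0.09, 0.16, -0.17 and -0.06 and metastases -0.09, 0.89, 0.02, -0.58 and 0.59, with carcinomas from -0.73 to 0.15 and disseminated cells from -0.72 to -0.08. All groups overlapped, and the span was 0.53. The widest difference, metastases minus disseminated cells, was 0.53 (95% CI 0.09 to 0.98, adjusted p = 0.105 by limma), and it passed at 0.72 (adjusted p = 0.0197) without metastasis replicate 4. With the macrophage mean as a covariate Bid passed higher in metastases than in adenomas (0.74, adjusted p = 0.0182) and than in carcinomas (0.74, adjusted p = 0.0167 by limma).

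**Figure D4:**
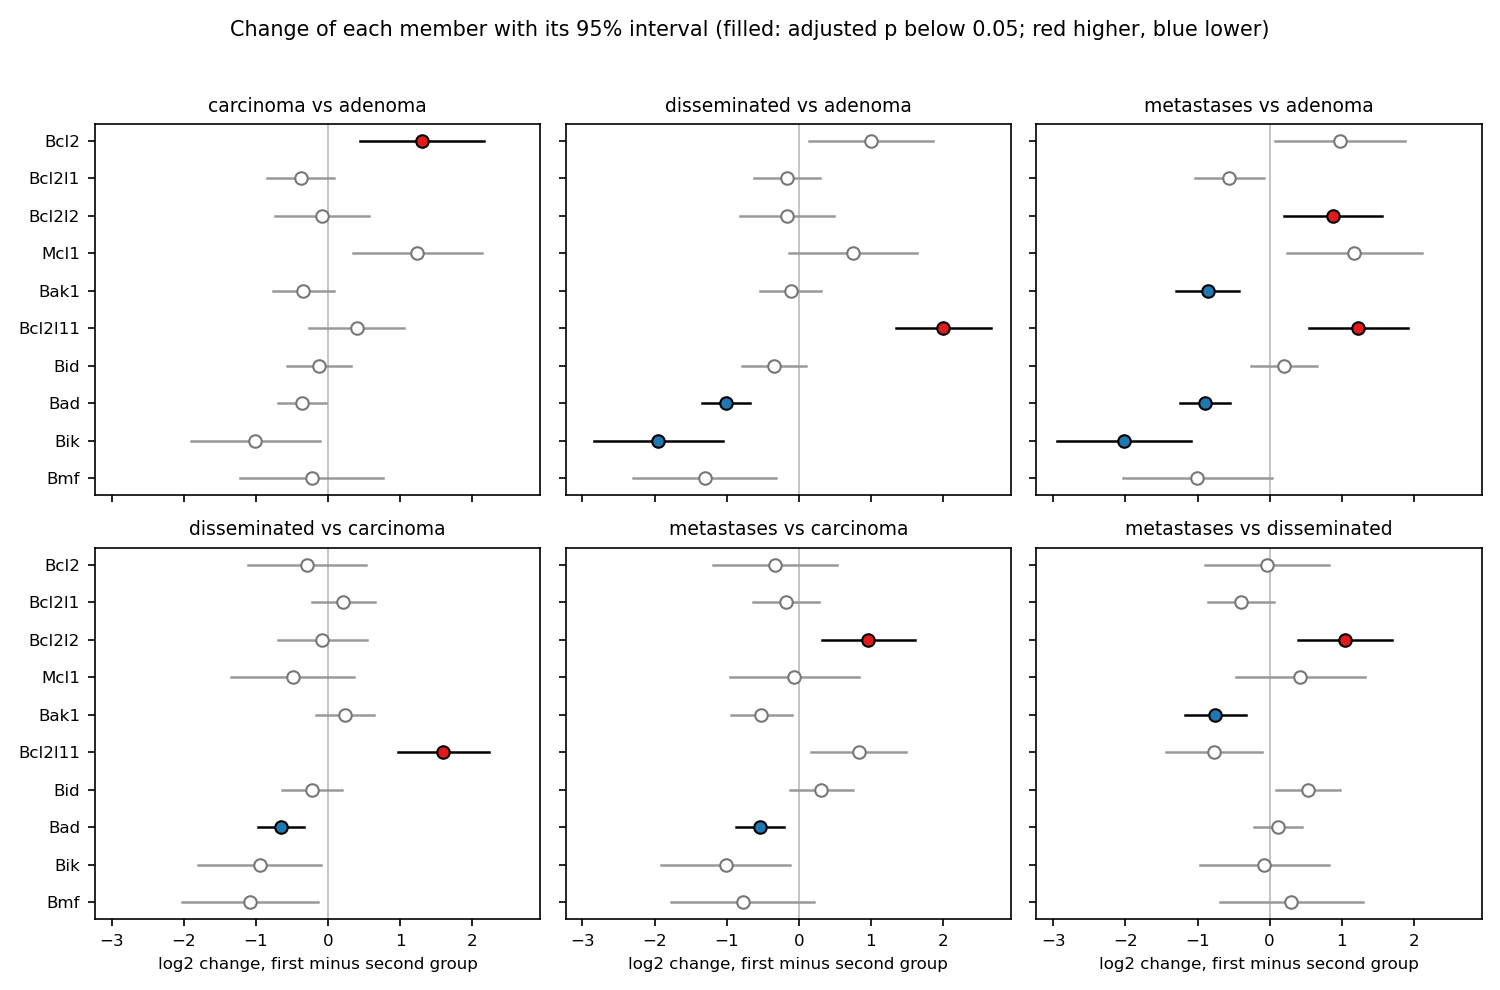
The log2 difference of each gene's brightest probe in the 6 progression comparisons, 1 panel per comparison, with 95% confidence intervals and filled points (red higher, blue lower in the first group) for an adjusted p below 0.05 by limma. The points farthest from 0 are Bcl2l11 at 2.00 in disseminated cells and Bik at -2.02 in metastases, both against adenoma.

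The chemotherapy groups gave no call in the family. In each of the 3 comparisons 0 of the 10 genes and 0 of the 22 probes passed by limma's adjusted p, against 0.2% of all names (0.17% of all probes) between residual and untreated tumors, 0.00715% (0.00486%) between relapsed and untreated tumors and 0.257% (0.226%) between relapsed and residual tumors. At an unadjusted p below 0.05 there were 2 of 10, 2 of 10 and 1 of 10 genes, where 8.86%, 7.63% and 7.37% of all probes were. So few probes passed anywhere that a count of 0 says little about the family. The median change of the 10 genes was 0.16, -0.03 and -0.07 on the log2 scale, and that of all probes -0.01, 0.01 and 0.01. Group means spanned at most 0.89 (Bmf) and at least 0.09 (Bad).

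**Figure D5:**
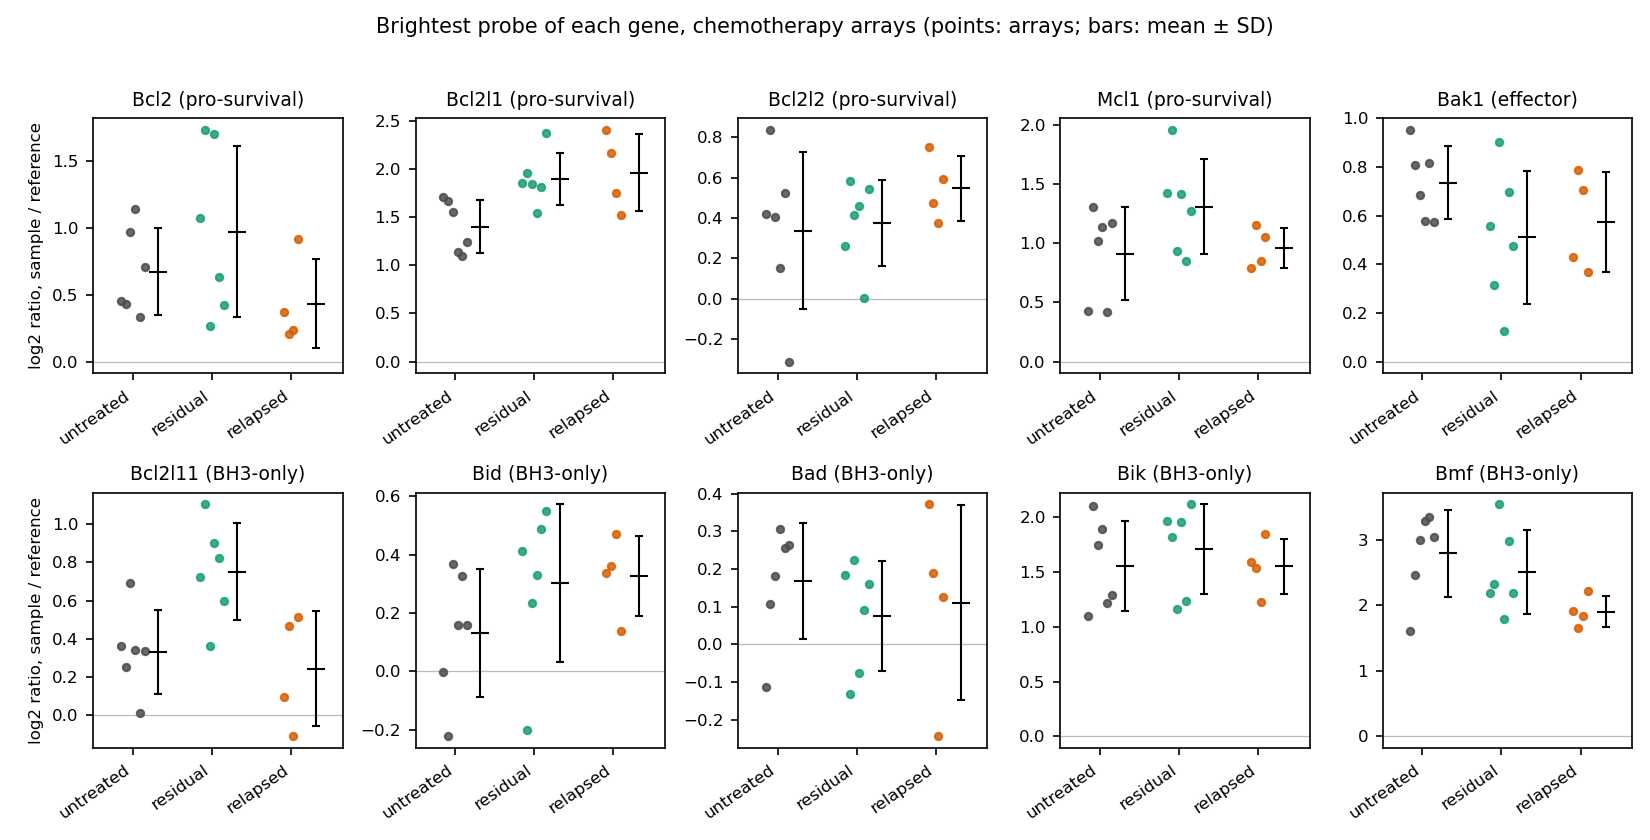
The log2 ratio of sample to reference for the brightest probe of each of the 10 genes in untreated (6), residual (6) and relapsed (4) tumors, 1 point per sample, with the group mean and SD. The groups overlap for each of the 10 genes: Bcl2l1, for example, ran from 1.09 to 1.71 in untreated tumors, from 1.54 to 2.37 in residual tumors and from 1.52 to 2.41 in relapsed tumors.

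Among the brightest probes, that of Bcl2l1 had the lowest unadjusted p of the survival genes. Untreated tumors had a lowest value of 1.09, a median of 1.39 and a highest of 1.71, residual tumors 1.54, 1.85 and 2.37, and relapsed tumors 2.41, 2.17, 1.74 and 1.52. Of the 6 residual tumors 5 were above all untreated tumors, as were 3 of the 4 relapsed tumors. The differences from untreated tumors were 0.50 (SE 0.17, 95% CI 0.15 to 0.85, adjusted p = 0.365) and 0.56 (SE 0.18, 95% CI 0.17 to 0.95, adjusted p = 0.394 by limma), and neither passed. The other probes of Bcl2l1 did not pass either.

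Mcl1 gave the lowest adjusted p of any probe of the family in this experiment, on its second probe. Untreated tumors had values from 1.32 to 1.86 there, residual tumors from 1.93 to 2.47, and relapsed tumors 1.21, 1.84, 1.36 and 1.50. The residual tumors overlapped neither other group. They differed by 0.57 from untreated tumors (SE 0.13, adjusted p = 0.109), and relapsed tumors differed by -0.68 from residual tumors (SE 0.14, adjusted p = 0.0685 by limma). Groups that do not overlap were found for 0.741% and 1.65% of all probes in these comparisons, and for 1.64% between relapsed and untreated tumors. On the brighter Mcl1 probe the groups overlapped, and the same differences were 0.40 (adjusted p = 0.572) and -0.35 (adjusted p = 0.788 by limma).

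Bcl2 was 0.33 to 1.14 in untreated tumors, 0.27 to 1.73 in residual tumors and 0.37, 0.21, 0.23 and 0.92 in relapsed tumors. The difference between residual and untreated tumors was 0.30 (95% CI -0.23 to 0.83), and that between relapsed and residual tumors -0.54 (95% CI -1.13 to 0.05, adjusted p = 0.724 by limma). Bcl2l2 was -0.31 to 0.84, 0.01 to 0.58 and 0.37 to 0.75 in untreated, residual and relapsed tumors. The effector gene Bak1 was 0.58 to 0.95, 0.13 to 0.90 and 0.37 to 0.79 in the same order, with differences from untreated tumors of -0.22 (95% CI -0.48 to 0.03) and -0.16 (95% CI -0.45 to 0.12).

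Of the BH3-only genes, Bcl2l11 was 0.01 to 0.69 in untreated tumors with a median of 0.34, 0.36 to 1.10 in residual tumors with a median of 0.77, and 0.10, 0.47, -0.11 and 0.52 in relapsed tumors. Residual tumors lay mostly above both other groups, which they overlapped. The difference from untreated tumors was 0.42 (SE 0.14, 95% CI 0.13 to 0.71, adjusted p = 0.361), and relapsed tumors differed from residual tumors by -0.51 (SE 0.16, adjusted p = 0.375 by limma). Bmf was 1.60 to 3.35 in untreated tumors with a median of 3.03, 1.80 to 3.54 in residual tumors with a median of 2.26, and 1.91, 1.65, 1.84 and 2.21 in relapsed tumors. All relapsed tumors lay below 5 of the 6 untreated tumors and above the sixth, untreated replicate 1. The difference was -0.89 (SE 0.34, 95% CI -1.61 to -0.17, adjusted p = 0.494 by limma).

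On their brightest probes the group means of Bid, Bad and Bik spanned 0.20, 0.09 and 0.16 over the chemotherapy groups. For Bad the brightest probe here was the one that was second along progression. Bid was -0.22 to 0.37, -0.20 to 0.55 and 0.14 to 0.47 in untreated, residual and relapsed tumors, Bad -0.11 to 0.31, -0.13 to 0.23 and -0.24 to 0.37, and Bik 1.10 to 2.10, 1.16 to 2.12 and 1.23 to 1.85. On the other Bad probe, well above background in 2 untreated, 4 residual and 2 relapsed tumors, the means were -0.66, -0.40 and -0.70, and residual tumors differed by 0.26 from untreated tumors (adjusted p = 0.525 by limma). Against untreated tumors the differences of Bik were 0.15 (95% CI -0.28 to 0.58) and -0.01 (95% CI -0.49 to 0.47). No gene of any marker list passed between these groups, where 0.17%, 0.00486% and 0.226% of all probes did, so this says little about the cells present. The macrophage mean overlapped across the groups, at -0.27 to 2.51 in untreated, -0.43 to 1.75 in residual and -0.84 to 0.99 in relapsed tumors. Untreated replicates 1 to 3 lay at 1.93 or above and replicates 4 to 6 at 0.06 or below. The median change of the 12 macrophage genes was -0.69 in residual and -1.12 in relapsed against untreated tumors. Slides held different groups in part, with untreated tumors alone on 1 slide and residual tumors alone on another.

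Genes around the family were read from 4 lists: 12 other Bcl2 family genes, 17 genes of the apoptosome, caspases and their inhibitors, 10 death receptor genes and 13 regulators of the members. Of all names 0.2% passed between residual and untreated tumors, 0.00715% between relapsed and untreated tumors and 0.257% between relapsed and residual tumors. A count of 0 there therefore says little about the lists. After chemotherapy 0 genes of the lists passed apart from Tnfsf10, the gene of the death ligand TRAIL. It was 1.12 higher in residual than in untreated tumors (SE 0.17, adjusted p = 0.0171), with means of 2.31 ± 0.19 (SD, n = 6) and 1.19 ± 0.33 (n = 6), and 1.44 lower in relapsed than in residual tumors (SE 0.19, adjusted p = 0.00186 by limma).

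Along progression, 2 of the 12 other family genes passed higher and 1 lower in carcinomas than in adenomas, 4 and 1 in disseminated cells than in adenomas, and 6 and 1 in metastases than in adenomas, with median changes of 0.27, 0.08 and 0.40 beside 0.05, -0.01 and 0.02 over all probes. In either direction 11.7%, 19.9% and 28.6% of all names passed in these comparisons, which is the background of the counts of all 4 lists. Bnip3, a hypoxia-responsive mitochondrial gene, was 1.30 higher in carcinomas (adjusted p = 0.0106) and 2.62 higher in metastases (adjusted p = 2.09e-05) than in adenomas. Pmaip1, which encodes the BH3-only protein Noxa that binds Mcl1, was 2.41 higher in disseminated cells than in adenomas (adjusted p = 0.0146 by limma). Bcl2a1b, a survival gene of leukocytes with near-identical copies in the mouse genome that this probe may also detect, was 4.60 higher in disseminated cells (adjusted p = 0.00359) and 3.53 higher in metastases (adjusted p = 0.0128 by limma) than in adenomas, beside the macrophage and neutrophil genes given above. The part of such cells in this, and in the other genes of the 4 lists that differed in lung samples, was not tested. Bbc3, the gene of Puma, was 1.60 higher in metastases than in disseminated cells (adjusted p = 0.000113), and Bcl2l12 was 1.34 lower in metastases than in adenomas (adjusted p = 4.57e-05 by limma).

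Of the 17 apoptosome and caspase genes, 0 passed higher and 5 lower in disseminated cells than in adenomas, and 2 and 5 in metastases than in adenomas, with median changes of 0.04 and -0.28. Casp2, an initiator caspase, was 1.55 lower in metastases than in adenomas (adjusted p = 0.00156 by limma). Against carcinomas 3 genes passed higher and 3 lower in disseminated cells (26.4% of all names in either direction), and 5 and 2 in metastases (21.9%). Apaf1, the scaffold of the apoptosome, was 2.75 higher in disseminated cells (adjusted p = 0.00132) and 2.21 higher in metastases (adjusted p = 0.00911 by limma).

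Of the 10 death receptor genes, 0 passed higher and 1 lower in carcinomas than in adenomas, 4 and 1 in disseminated cells than in adenomas, and 2 and 1 in metastases than in adenomas, beside 11.7%, 19.9% and 28.6% of all names in either direction. Fas, a death receptor, was 1.88 higher in disseminated cells (adjusted p = 0.00226). Cflar, which blocks caspase-8, was 2.62 higher in disseminated cells (adjusted p = 0.0122) and 2.96 higher in metastases (adjusted p = 0.00434 by limma). Macrophage genes were higher in the same lung samples, and the part of such cells in these values was not tested. Tnfsf10 was lower than in adenomas by 1.09 in carcinomas (adjusted p = 0.0338), 1.79 in disseminated cells (adjusted p = 0.00153) and 1.11 in metastases (adjusted p = 0.0187 by limma). Of the 13 regulators, 0 passed higher and 1 lower, 1 and 3, and 1 and 1 in the same comparisons. Foxo1, one of the forkhead factors that can act on the Bim gene, was 1.12 lower in disseminated cells (adjusted p = 0.0423) and 1.97 lower in metastases (adjusted p = 0.00103) than in adenomas. Dynll2, the dynein light chain that holds Bmf, was 1.81 lower in disseminated cells than in adenomas (adjusted p = 0.000607), and Pim1, a kinase that phosphorylates Bad, 1.89 higher (adjusted p = 0.00694 by limma). Usp9x, which stabilizes the Mcl1 protein, was 1.60 higher in metastases than in carcinomas (adjusted p = 0.0019 by limma).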

How the data were processed

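Scanner intensities were deposited by the authors as Agilent Feature Extraction 10.7 output for 38 arrays, per the file headers, with a mean signal and a median local background for each dye; the authors also deposited a matrix of log2 ratios, which served as an alternative. Spots were corrected with normexp (offset 50), normalized by loess within arrays and by quantiles between the arrays of an experiment, and averaged per probe in R 4.3.3 with limma 3.58.1. Outlier spots were left out. The members and lists were chosen with earlier results of these data known. All 10 members were named in every comparison, and from the lists at most the 2 highest and 2 lowest passing genes of at least 2-fold. Some genes of the lists that met this rule, and a count resting on them, are not reported here. Each experiment was fitted with lmFit and eBayes on all its groups, and p-values were adjusted over 41174 probes. In simulated arrays with independent noise, shifts were added to randomly drawn probes and to no others. Shifts of 1 on the log2 scale were recovered in 81% to 90% of cases in chemotherapy comparisons and 60% to 70% in progression comparisons. The number of changed probes, on which the adjusted p depends, differed from that of the real arrays. These rates therefore do not carry over to the 10 genes. The number of arrays limits the precision. Columns of the authors' own comparisons were not used. Promoter sequences are from RefSeq (GRCm38.p6), and probe positions are those of the array files (mm7).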

Additional observations from a re-analysis of the deposited data

Results flagged for a closer look

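Within groups of 4 to 6 samples, 2 of the 70 combinations of gene and group held a sample far from the others by Dixon's test, where chance alone marks about 1 in 20. Bcl2 was -0.24 in adenoma replicate 4, below the other adenomas at 0.30 to 0.40. Bak1 was -0.71 in adenoma replicate 5, above the other adenomas at -1.49 to -1.31. The fits without adenoma replicate 4 (Bcl2, carcinoma against adenoma, 1.18, adjusted p = 0.0883 by limma) and without adenoma replicate 5 are among the alternatives below.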

How the results depend on the processing

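Of 1700 values from alternatives in the progression experiment 1551 kept their direction and their side of the threshold, or their size, 85 no longer passed, 54 passed anew, 10 moved by more than 1 SD without a test call and 0 turned their sign after a call. Of 770 in the chemotherapy experiment 769 stayed and 1 moved, Bcl2 between relapsed and untreated tumors (0.19 with slide as a fixed block). The number of genes passing was 1, 3, 5, 2, 2 and 2 in carcinoma against adenoma, disseminated cells against adenoma, metastases against adenoma, disseminated cells against carcinoma, metastases against carcinoma and metastases against disseminated cells. For carcinoma against adenoma it was 0 with processed signals, median centring, no normalization between arrays, Aquantile normalization or slide as a random block. For metastases against adenoma it was 3 with no normalization between arrays or with Aquantile. For disseminated cells against adenoma it was 5 with slide as a fixed block, which could not be used where groups shared no slide. Metastases against carcinoma gave 4, and metastases against disseminated cells 0, when only the 2 groups were fitted or when the equal-variance test had no moderation, and the latter gave 1 with processed signals. With the macrophage mean as a covariate disseminated cells against adenoma gave 0, against carcinoma 0, metastases against adenoma 2 and against carcinoma 1, counts that include Bid, which passed anew in both. That mean is only partly separable from the group in these comparisons, so the lost calls do not tell what part macrophages had. Leaving out 1 array gave 0 to 0 in the chemotherapy comparisons, and 0 to 1, 3 to 4, 4 to 6, 2 to 4, 0 to 5 and 0 to 2 in the order above. The cause of these differences was not tested.

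Further alternatives were chosen after seeing the data. Without carcinoma replicate 6 and with the macrophage mean as a covariate, disseminated cells against adenoma gave 0, metastases against adenoma 1 (Bid, anew), and both lung groups against carcinoma 0. Without the 4 arrays least like their groups, disseminated cells against adenoma gave 5, both lung groups against carcinoma 5, and metastases against disseminated cells 4. With the mammary epithelium mean as a covariate carcinoma against adenoma gave 2 and metastases against disseminated cells 0.

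The labels do not say that replicate numbers pair the samples, and a number is used only as a name here. Correlations of same-numbered deviations ran from -0.404 to 0.433. In each comparison 0 to 2 samples, of 4 to 6 pairs, correlated best with their own number. So few pairs cannot exclude a pairing. With a replicate block 0, 0 and 0 genes passed in chemotherapy and 1, 3, 4, 3, 3 and 2 along progression.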
